A study of Mus musculus with 6 samples.

Results

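The NADPH oxidase subunit genes are Cybb, Cyba, Ncf1, Ncf4 and Rac2, which encode parts of the enzyme that makes superoxide in phagocytes. They were found by their symbols in the deposited expression table, and 5 of the 5 listed were present among 12161 genes. The measurements are mRNA sequencing values from bone marrow LSK cells of C57BL/6 mice, a fraction of stem and early progenitor cells isolated by sorting. In 3 libraries the cells carried the retrovirus MIG, and their genotype label is wild-type. In the other 3 they carried MIG-Hhex, and the genotype label is Hhex, a homeobox transcription factor. The virus was bound to coated plates, and the cells stayed in culture for 2 days before sorting for GFP. The medium held IL-6 at 10 ng/mL, SCF and Flt-3 at 50 ng/mL each, and a further cytokine at 10 ng/mL that the labels spell mL-3. The labels name the replicates WT3, WT691 and WT703, each with a library per vector, and the design text calls them biological replicates. The labels state neither the age of the mice, nor how many were pooled, nor the promoter that drives the insert.

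The phagocyte oxidase moves electrons from NADPH across a membrane to oxygen. Its catalytic core is a membrane heterodimer, cytochrome b558, made of gp91phox (Cybb) and p22phox (Cyba). In resting cells further subunits, p47phox (Ncf1) and p40phox (Ncf4) among them, stay in the cytosol, and on activation they join the heterodimer together with a Rac GTPase, Rac2 in most blood cells. Loss of the cytochrome b558 chains or of p47phox causes chronic granulomatous disease, and the genes are switched on as progenitors mature into neutrophils, monocytes and macrophages.

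Promoter sequences were available for 3 of the 5 genes, from RefSeq on GRCm38.p6, and each line holds the 250 bases before the start of transcription. They are shown because Cybb and Cyba, the partners of the membrane heterodimer, had fold changes of opposite sign, and because Ncf1 shares a motif with Cybb. Capitals mark matches, on either strand, to the interferon regulatory factor (IRF) element, here 2 copies of GAAA separated by 2 bases of any kind. The start used for Cybb lies inside the span given for the gene below, which takes in a more distant start. The Cybb window is chrX:9469325-9469574, the Cyba window chr8:122432941-122433190 and the Ncf1 window chr5:134229626-134229875, all on the minus strand.
Cybb: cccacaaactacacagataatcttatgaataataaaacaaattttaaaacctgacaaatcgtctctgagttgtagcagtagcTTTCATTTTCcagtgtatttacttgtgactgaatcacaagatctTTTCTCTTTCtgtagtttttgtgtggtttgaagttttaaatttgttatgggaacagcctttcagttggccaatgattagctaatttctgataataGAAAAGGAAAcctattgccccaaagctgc
Cyba: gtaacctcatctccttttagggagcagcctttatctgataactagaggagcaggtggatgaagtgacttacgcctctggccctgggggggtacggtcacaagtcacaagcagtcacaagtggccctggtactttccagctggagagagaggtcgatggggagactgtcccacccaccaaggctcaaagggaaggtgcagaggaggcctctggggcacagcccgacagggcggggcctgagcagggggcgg
Ncf1: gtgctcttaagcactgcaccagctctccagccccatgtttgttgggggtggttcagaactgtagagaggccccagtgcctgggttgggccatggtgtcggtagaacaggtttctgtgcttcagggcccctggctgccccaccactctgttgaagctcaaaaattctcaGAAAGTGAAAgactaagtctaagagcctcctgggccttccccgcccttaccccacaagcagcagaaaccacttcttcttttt

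The Cybb window held 3 matches to the IRF element, beginning 168, 124 and 29 bases before the start, the Ncf1 window 1, at 82 bases, and the Cyba window 0. Of all 32851 promoter windows of this length, 2.98% held at least 1 match. The 3 windows held no match to the PU.1 site form GAGGAA, the C/EBP motif TTGCNNAA or the homeodomain motifs TAATTA and CAATTA. Those letters occur in 23.3%, 9.56%, 4.84% and 7.17% of all windows. Shorter forms such as GGAA were not searched, and GGAA lies within the marked Cybb match nearest the start. A match describes the sequence and is not evidence of binding. GC content was 34.0% in the Cybb window, 54.4% in that of Ncf1 and 60% in that of Cyba, against a median of 52.4%.

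In the presence of MIG-Hhex, Cybb fell and Rac2 rose, while Cyba, Ncf1 and Ncf4 did not pass the test. Values are deposited log2 expression values, and fold changes are MIG-Hhex minus MIG from limma, with flow cell as a covariate, and called at an adjusted p under 0.05 over all genes. Thus 1 of 5 subunit genes was called higher and 1 lower, while 9.44% of all genes were called higher and 8.52% lower (18.0% together). With the replicate as a block in the model, 3 were called higher (Cyba, Ncf4 and Rac2) and 1 lower (Cybb), while 24.5% of all genes were called. In 2 of the 5, Cybb and Rac2, the values of the vector groups did not overlap, as in 21.2% of all genes. Each of the 5 had a fold change of the same sign in all 3 replicate pairs, negative for Cybb and positive for the other 4. The share of all genes with the same sign in all 3 pairs was not taken, so this count has no background beside it. The median fold change of all genes was −0.02. The labels do not show that the replicates came from separate animals, so p-values measure the spread between these libraries. In bulk RNA, fewer cells of a type and less RNA per cell cannot be told apart.

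The labels place the libraries of replicate WT3 on another flow cell than the other 4, and these stood apart from them on the second principal component of the 1000 most variable genes (32.9% of the variance). Hhex itself was at 5.05 to 5.18 with MIG and at 7.61, 9.34 and 9.06 with MIG-Hhex in replicates WT3, WT691 and WT703. Of the LSK identity genes, Kit was between 4.44 and 4.86 and Cd34 between 6.82 and 7.50 in the 6 libraries. Ly6a, which encodes Sca-1, was at 3.18 with MIG and 3.55 with MIG-Hhex in WT3, and at 5.89 to 6.25 in the other 4 libraries. Of the 11 genes of that list, all measured, 0 rose and 1 fell, while 9.44% of all genes rose and 8.52% fell. The fall was that of Meis1, a stem cell transcription factor, by 0.79. Of the 11 fold changes, 9 were negative (median −0.19). Of 10 B cell genes 1 and of 13 T and NK cell genes 2 were measured here; the others were not analysed.

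Cybb encodes the flavin- and heme-bearing chain that carries the electrons. It lies on chromosome X from 9435252 to 9487766 in GRCm38.p6 (Entrez 13058). Its log2 value with MIG was 5.10, 5.34 and 4.79 in replicates WT3, WT691 and WT703. With MIG-Hhex it was 4.29, 3.66 and 2.41. Every MIG-Hhex library lay below every MIG library, and the MIG-Hhex library of replicate WT703 was the lowest. The means were 5.08 ± 0.28 and 3.46 ± 0.96 (SD, n = 3). The fall was 3.08-fold (log2 −1.62, SE 0.39, limma adjusted p = 0.0345), with a 95% interval from −2.55 to −0.70. Only 1.55% of all genes had a more negative fold change. The pairs differed in size: Cybb was 1.74-fold lower in the pair of WT3, 3.21-fold in that of WT691 and 5.22-fold in that of WT703.

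The direction of the Cybb change was the same in every fit that left out a library or replicate, but the call was not. It was lost without the MIG library of WT3, WT691 or WT703 and without the MIG-Hhex library of WT3 or WT691, and also without replicate WT3 (limma adjusted p from 0.05001 to 0.0978 in these 6 fits). Leaving out 1 library of WT3 leaves its partner alone on its flow cell, so these fits give the same estimate as those without WT3. Within flow cell C5LWPANXX, which holds the other 2 replicates, the log2 fold change was −2.03 (limma adjusted p = 0.05001, just above the threshold). On the other flow cell there is 1 pair alone.

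Cyba encodes the smaller chain, which stabilises gp91phox and docks p47phox. It lies on chromosome 8 from 122424771 to 122432940 (Entrez 13057). With MIG its log2 value was 8.27, 7.34 and 7.08 in WT3, WT691 and WT703, and with MIG-Hhex it was 8.52, 7.90 and 7.55. The groups overlapped because the WT3 libraries were the highest in each vector group. Cyba was higher with MIG-Hhex in each pair, by 0.25, 0.56 and 0.47. Its fold change of 0.43 (SE 0.12, 1.34-fold, 95% interval 0.14 to 0.71) did not pass (limma adjusted p = 0.0550). With the replicate as a block in the model, it did (limma adjusted p = 0.00972, SE 0.07). With the GC trend removed, the fold change of Cyba was 0.29 (limma adjusted p = 0.129, and 0.0250 with the replicate block). 

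**Figure D1:**
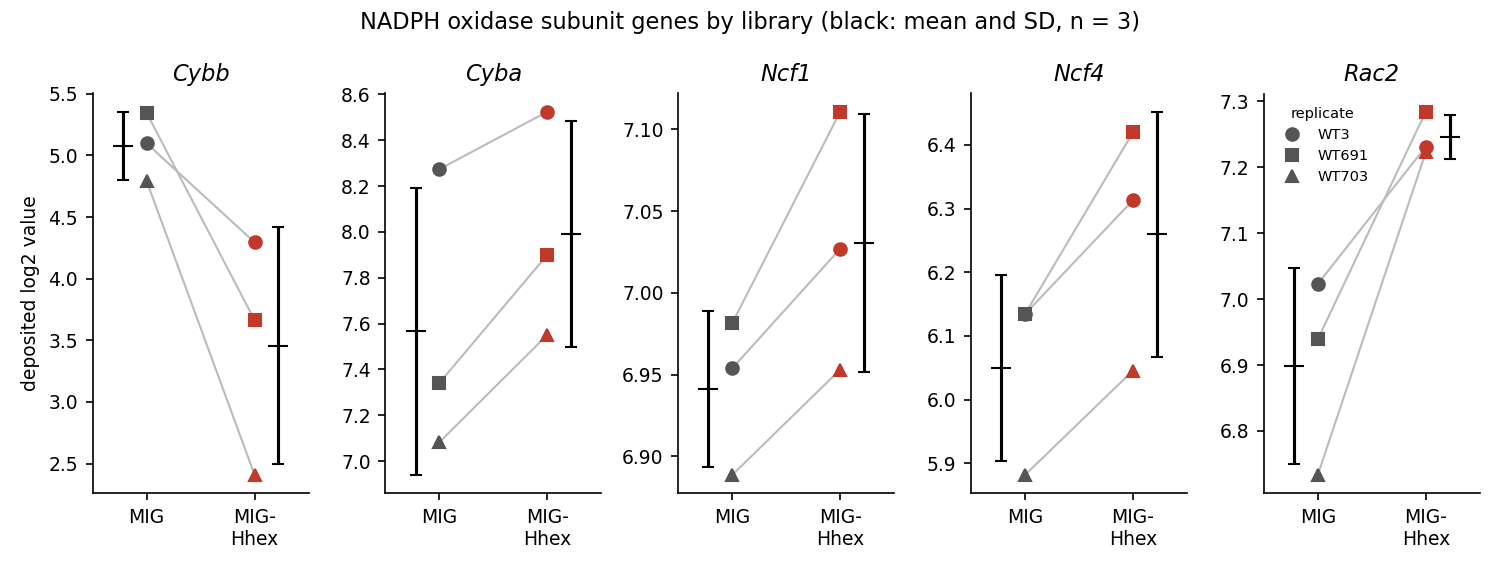
Deposited log2 value (vertical axis, scaled for each gene) of the 5 subunit genes in each library, with grey lines joining the libraries of a replicate and black bars for the mean and SD of each group (n = 3). Cybb drops from 5.08 to 3.46 on average and its groups do not overlap; for Cyba, Ncf1, Ncf4 and Rac2 each line goes up, by 0.06 to 0.56.

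Because Cyba and Cybb pair in the protein, their values were also compared within each library. Cyba exceeded Cybb by 3.18, 2.00 and 2.29 on the log2 scale in the MIG libraries of WT3, WT691 and WT703. In the MIG-Hhex libraries the excess was 4.23, 4.24 and 5.14, so that the groups did not overlap. The mean excess rose from 2.49 ± 0.61 to 4.54 ± 0.53 (SD, n = 3), a difference of 2.05. This comparison was chosen with the values known, and an exact permutation test of 3 against 3 libraries cannot go below p = 0.10 (two-sided), the value it gave. Set against Cybb in the same way, Ncf1 moved by 1.71, Ncf4 by 1.83 and Rac2 by 1.97, and none of these comparisons overlapped between groups. All these differences subtract the same Cybb values, so each includes the fall of Cybb and they are not separate results.

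**Figure D2:**
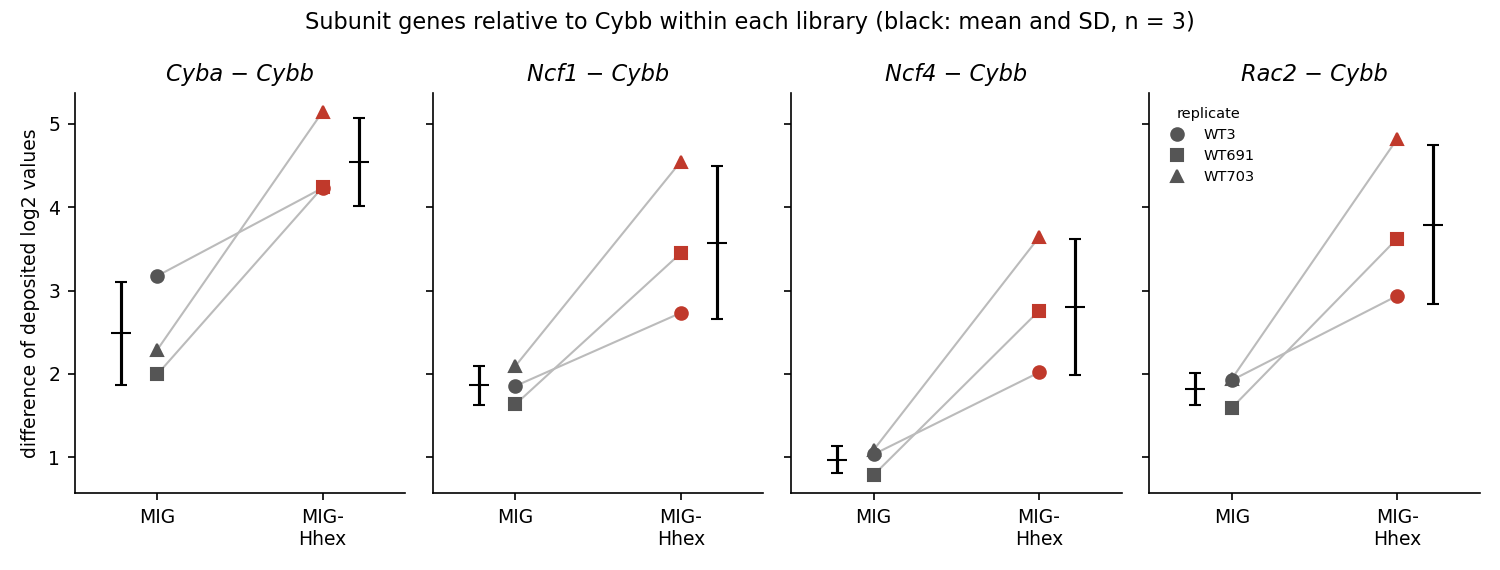
Difference between the deposited log2 value of each of the other 4 subunit genes and that of Cybb in the same library (vertical axis, shared), with grey lines joining the libraries of a replicate and black bars for mean and SD (n = 3). Every line goes up, and each includes the fall of Cybb. For Cyba the mean difference goes from 2.49 to 4.54.

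Ncf1 encodes p47phox, the organiser that is phosphorylated on activation and brings the cytosolic complex to the membrane. It lies on chromosome 5 from 134220053 to 134229628 (Entrez 17969). Its log2 values spanned 6.89 to 6.98 with MIG and 6.95 to 7.11 with MIG-Hhex, the narrowest range over all 6 libraries among the 5 genes. The MIG libraries of WT3, WT691 and WT703 were at 6.95, 6.98 and 6.89, and the MIG-Hhex libraries at 7.03, 7.11 and 6.95, so the groups overlapped. The fold change was 0.09 (SE 0.06, 1.06-fold) and did not pass (limma adjusted p = 0.352). Its 95% interval, from −0.06 to 0.24, leaves room for small changes either way but not for a fall like that of Cybb. With the GC trend removed, its fold change was 0.015.

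Ncf4 encodes p40phox, which binds a phosphoinositide of phagosome membranes and supports oxidase activity there. It lies on chromosome 15 from 78244164 to 78262582 (Entrez 17972). Its log2 values were 6.13, 6.13 and 5.88 with MIG and 6.31, 6.42 and 6.05 with MIG-Hhex, in the order WT3, WT691, WT703. The WT703 libraries were the lowest of each group, and the groups overlapped. The fold change of 0.21 (SE 0.11, 1.16-fold, 95% interval −0.06 to 0.48) did not pass (limma adjusted p = 0.236). With the replicate block it did (limma adjusted p = 0.0269), though not when the block was combined with removal of the GC trend (fold change 0.10, limma adjusted p = 0.166).

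Rac2 is a small GTPase, specific to blood cells, whose active form joins the assembled oxidase. It lies on chromosome 15 from 78559169 to 78572783 (Entrez 19354). Its log2 value was 7.02, 6.94 and 6.73 with MIG and 7.23, 7.28 and 7.22 with MIG-Hhex. All MIG-Hhex libraries lay above all MIG libraries, and they differed little among themselves (mean 7.25 ± 0.03, against 6.90 ± 0.15 with MIG; SD, n = 3). The rise was 1.27-fold (log2 0.35, SE 0.08, 95% interval 0.16 to 0.53, limma adjusted p = 0.0280). It was 0.21, 0.35 and 0.49 in the pairs of WT3, WT691 and WT703. The call was lost in 8 of 9 fits that left out a library or replicate, all but the fit without the MIG library of WT691 (limma adjusted p 0.0381 there and up to 0.111 in the others). Within flow cell C5LWPANXX the fold change was 0.42 (limma adjusted p = 0.0507).

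The WT3 pair had the smallest difference in Cybb, Cyba and Rac2 of the 3 pairs, and also the smallest rise of Hhex, 2.43 against 4.29 in WT691 and 3.93 in WT703. For Ncf1 and Ncf4 the smallest difference was in WT703 (0.06 and 0.16). Cybb and Rac2 differed most in WT703, whereas Hhex rose most in WT691. The WT3 pair is also the only pair on its flow cell. The part of the Hhex level in these differences was not tested. With MIG the mean log2 levels ran from Cyba (7.57 ± 0.63) through Ncf1 (6.94 ± 0.05), Rac2 (6.90 ± 0.15) and Ncf4 (6.05 ± 0.15) to Cybb (5.08 ± 0.28; SD, n = 3). The MIG values of Ncf1 and Rac2 overlapped, while the other neighbours in this order did not overlap. With MIG-Hhex, Cybb stayed last at 3.46, and Rac2 (7.25) came before Ncf1 (7.03). Across genes the deposited values fall with transcript length (Spearman correlation −0.233), as values per length would, but scaling by length is not documented in the labels, so this order is a description of the table.

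**Figure D3:**
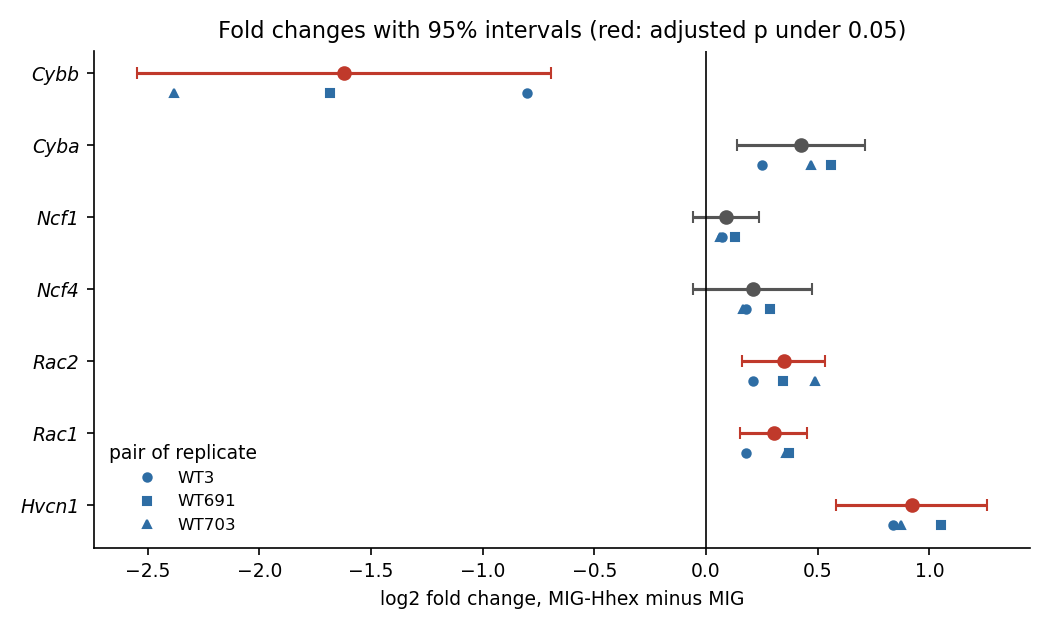
Log2 fold change (horizontal axis, MIG-Hhex minus MIG) of the 5 subunit genes and of Rac1 and Hvcn1, with 95% intervals from limma (large points, red where the adjusted p is under 0.05) and the difference within each replicate pair (small blue symbols). Cybb at −1.62 is the single gene left of 0; Rac2, Rac1 and Hvcn1 passed on the right.

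For each oxidase-related list from here on, the share over all genes was 9.44% called higher and 8.52% called lower. Of 15 other oxidase components and homologues listed, 6 were measured, of which 2 rose, 0 fell and 4 did not pass (median −0.02). Hvcn1, the voltage-gated proton channel that balances the charge carried by the oxidase, rose 1.89-fold (log2 0.92, SE 0.14, limma adjusted p = 0.00926). It was at 4.66, 4.46 and 4.15 with MIG and at 5.49, 5.51 and 5.02 with MIG-Hhex, without overlap. Rac1, the widely expressed relative of Rac2, rose by 0.30 (SE 0.06, limma adjusted p = 0.0225), a call lost in 5 of the 9 left-out fits. Rap1a and Rap1b, small GTPases that co-purify with cytochrome b558, stood at fold changes of −0.04 and −0.05 and failed the test. BC017643, the chaperone of the heterodimer also known as EROS, is outside the naming rule and was added with its value known. It stood at a fold change of −0.0032 (limma adjusted p = 0.9747).

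Rac GTPases are switched on by exchange factors and off by activating proteins, and dissociation inhibitors hold them in the cytosol. Of 22 such genes, all measured, 5 rose and 6 fell (median 0.11), while 9.44% of all genes rose and 8.52% fell. Prex1, an exchange factor for Rac2 in neutrophils, rose 1.86-fold (log2 0.90, SE 0.10), while Vav3, another exchange factor, fell by 0.61 and Elmo1, a partner of Dock2, by 0.41. Arhgap15, which inactivates Rac, fell by 0.70 in a comparison without overlap. The inhibitors Arhgdib and Arhgdia, at MIG means of 10.07 and 8.37, had values of −0.21 and −0.07, short of the threshold.

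Kinases and lipid enzymes that lead to oxidase assembly were measured for 25 of 26 genes. Of these, 9 rose, 3 fell and 13 did not pass (median 0.13), while 9.44% of all genes rose and 8.52% fell. Fgr, a Src family kinase of myeloid cells, rose 2.47-fold (log2 1.31, SE 0.19). Pak1, a kinase that phosphorylates p47phox, rose by 0.86, Syk, the kinase downstream of Fc receptors and integrins, by 0.69, and Plcg2, a phospholipase C, by 0.30. Akt1 and Pak2 were not called, at 0.04 and 0.05. In the list of 24 receptors and adaptors that trigger the burst, 6 rose and 3 fell (median 0.07), beside the same shares. Ptafr, the receptor for platelet-activating factor, rose 3.54-fold (log2 1.82, SE 0.21) where its MIG mean was 0.74. Fcgr4, an activating IgG receptor, fell 6.86-fold (log2 −2.78, SE 0.25) where its MIG mean was 2.22 (log2 −1.76 with an offset of 1 added on the linear scale). Csf2rb2 and Csf2rb, the beta chains of the IL-3 and GM-CSF receptors, rose by 1.23 and 0.62. They are close copies whose reads could be split by the counting, so the 2 values are uncertain. Fcer1g, the shared Fc receptor gamma chain, and Fcgr2b, an inhibitory IgG receptor, did not pass (fold changes −0.26 and 0.08); with the replicate block Fcer1g did (limma adjusted p = 0.0125).

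Of 20 transcription factors that act on the subunit genes, 7 rose, 2 fell and 11 did not pass (median 0.20). The share over all genes was 9.44% higher and 8.52% lower. Cebpe, a factor of late granulocyte maturation, rose 3.19-fold (log2 1.67, SE 0.14, limma adjusted p = 0.00162). Irf8, which activates Cybb in myeloid cells, rose by 0.54 (SE 0.06) and Cebpa, a factor of granulocyte and monocyte commitment, also by 0.54 (SE 0.07). Satb1, a chromatin organiser, fell by 1.04. Spi1, which encodes PU.1, had a fold change of 0.28 that did not pass (limma adjusted p = 0.0532; with the replicate block 0.0197), and Nfkb1 one of −0.12. Cybb thus fell in the same libraries in which Irf8 rose, and the relation between them was not tested.

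The oxidase draws on NADPH from the pentose phosphate pathway and a few other enzymes. Of 16 genes of NADPH supply, 2 rose, 1 fell and 13 did not pass (median 0.04): 3 of 16 is close to the background of 18.0%. Taldo1 (transaldolase) and H6pd (hexose-6-phosphate dehydrogenase) each rose by 0.36, and Me2 (mitochondrial malic enzyme) fell by 0.27. Tkt (transketolase) and Pgd (6-phosphogluconate dehydrogenase) were not called, at 0.21 and −0.04; with the replicate block Tkt did (limma adjusted p = 0.0408).

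Antioxidant enzymes were measured for 30 of 34 genes, of which 5 rose and 3 fell (median 0.02). For this list and the next, the share over all genes was 9.44% higher and 8.52% lower. Prdx4, a peroxiredoxin of the secretory pathway, fell 2.01-fold (log2 −1.01, SE 0.07, limma adjusted p = 0.00096), and Gsr, glutathione reductase, fell 1.68-fold (log2 −0.75, SE 0.10). Prdx5, another peroxiredoxin, rose by 0.56 and Txnip, which binds thioredoxin, by 0.57. Gpx1 (glutathione peroxidase) and Txn1 (thioredoxin), among the most abundant, were not called either, at 0.03 and −0.08. Of 11 measured peroxidases and other enzymes of reactive oxygen and nitrogen, 6 rose and 2 fell. Ptgs1 (cyclooxygenase), Padi4 (a histone deiminase), Alox15 and Alox5 (lipoxygenases) rose by 1.85, 1.18, 4.80 and 1.01, Alox15 from a MIG mean of −2.02 (2.63 with an offset of 1 added on the linear scale). Epx (eosinophil peroxidase) and Nos2 (inducible nitric oxide synthase) were at 1.82 and 0.82, neither past the test. The size of the Epx value rests on replicate WT703 (differences 0.74, 0.79 and 3.93 in WT3, WT691 and WT703). The value was 0.52 without the MIG library of WT703, 0.77 without that replicate and 2.82 without the MIG library of WT691. Epx was called in 1 of the 9 left-out fits. Without either or both libraries of WT3, Nos2 was at 0.50. Mpo, myeloperoxidase, which turns the hydrogen peroxide made downstream of the oxidase into hypochlorous acid, is added with its value known: it fell by 3.12 (SE 0.50, limma adjusted p = 0.0105). The summed linear level of the list was 1797 to 2951 with MIG and 488 to 897 with MIG-Hhex. Without Mpo the sum of the other 10 genes was 245 to 313 and 408 to 486, in the opposite direction. This is not a sum of peroxidases alone: its highest MIG mean was that of Alox5ap (7.63), which rose by 0.31. Lpo, the other member called lower and also added with its value known, fell by 3.88 from a MIG mean of −1.58 (limma adjusted p = 0.0110). Like Cybb, Mpo fell most in the pair of WT703, by 4.28.

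**Figure D4:**
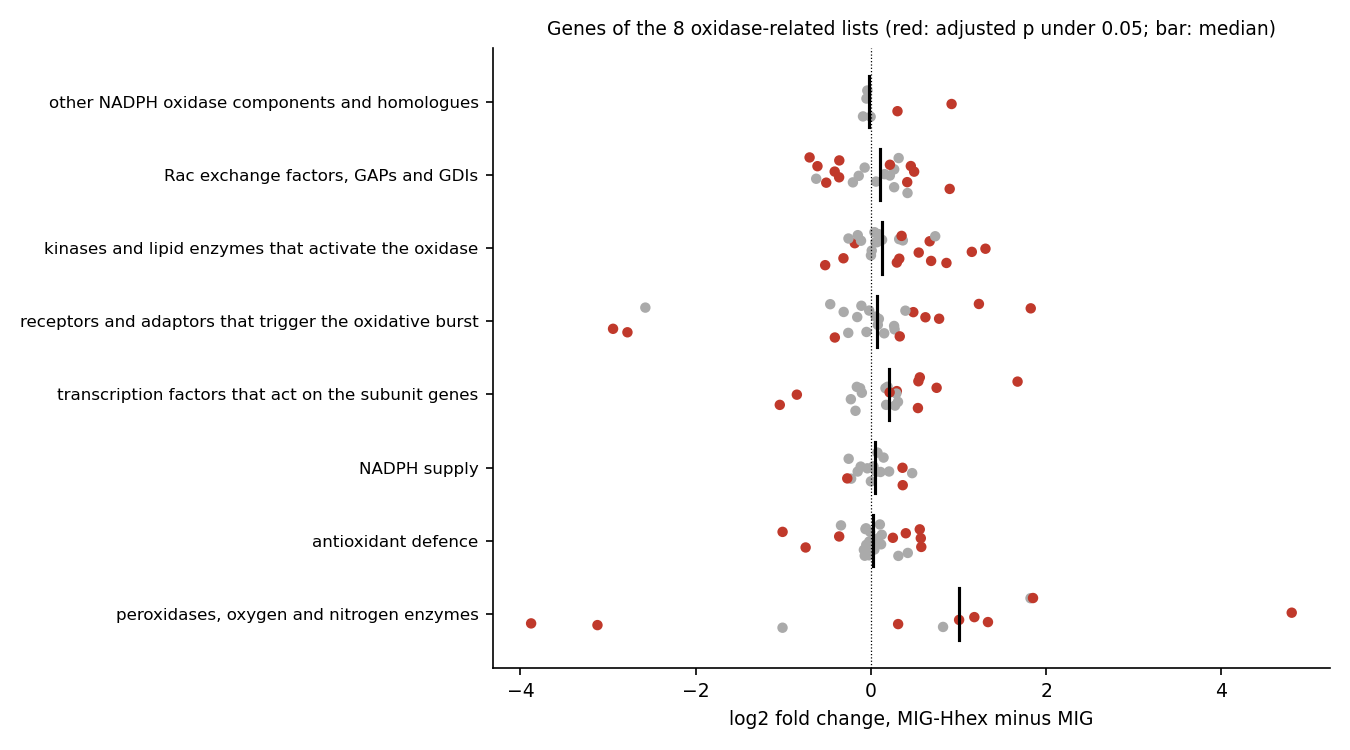
Log2 fold change (horizontal axis, MIG-Hhex minus MIG) of each measured gene in the 8 oxidase-related lists, with red points for an adjusted p under 0.05, black bars for the median of each list and vertical scatter for legibility. Called genes lie on either side of 0 in each list except the first, that of other oxidase components, where 2 rose and 0 fell.

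Without the subunit genes themselves, the 8 lists held 154 measured genes, of which 42 rose and 20 fell (40.3% called, against 18.0% of all genes). The lists were chosen with earlier results of these data known, and no set test was run. These shares are therefore a description and not a sign of enrichment. The median was 0.08. These counts shrank without single libraries. Without the MIG-Hhex library of WT691 they were 19 higher and 11 lower, without the MIG library of WT703 22 and 10, and without both libraries of WT703 23 and 9. Without the MIG or the MIG-Hhex library of WT3 they were 23 higher and 11 or 12 lower, and without both 23 and 12. Without the MIG library of WT691, 37 were higher and 11 lower, and without both libraries of WT691, or the MIG-Hhex library of WT703, 30 and 13. Of the called genes named above, H6pd and Me2 each lost the call in 6 of the 9 left-out fits, Taldo1 in 5, Csf2rb and Txnip in 4, and Vav3, Elmo1, Plcg2, Cebpa and Prdx5 in 1.

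Genes of mature myeloid cells, in which the oxidase is most active, moved in both directions in the same libraries. For the counts that follow, the share over all genes was 9.44% called higher and 8.52% called lower. Of 19 measured of 21 neutrophil genes, 11 rose and 2 fell (median 1.12). Their summed level, on the linear scale of the deposited values, was 7706 to 10148 with MIG and 6672 to 10024 with MIG-Hhex. Such a sum follows the most abundant genes and not the number that changed. This sum includes Mpo, which had the highest MIG mean of the list (10.96) and fell by 3.12. A sum of this list without Mpo was not taken. The list for monocytes, macrophages and dendritic cells held 18 measured of 19, with 5 higher and 4 lower (median 0.36). Their summed level was 511 to 1573 with MIG and 524 to 1910 with MIG-Hhex, so that the groups overlapped for either list. Of 8 measured of 9 eosinophil genes 1 rose (median 1.52), with summed levels of 8.42 to 87.0 and 58.5 to 116. The mast cell and basophil list, 8 measured of 11, had 1 higher and 3 lower (median −0.70), with sums of 249 to 496 and 215 to 340. Of 8 measured of 10 erythroid genes, 4 rose and 1 fell: Hba-a1 (alpha globin) by 3.77 and Slc4a1 (band 3) by 3.60, both from negative MIG values, Klf1 by 1.21 and Gata1 by 0.71, erythroid transcription factors, while Tfrc, the transferrin receptor and the most abundant of the list, fell by 0.29. Of 7 measured of 9 megakaryocyte and platelet genes, 2 rose (Itga2b by 0.73 and Gp9 by 0.94) and 1 fell (Pf4, by 0.94). The genes of these 2 lists were named with their values known, and their sums overlapped between groups (142 to 170 and 142 to 148; 64.9 to 93.1 and 71.9 to 96.4). Retnlg and Ly6g of the neutrophil list were not analysed here. The part of these lists in the changes of Cybb and Rac2 was not tested.

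The patterns of the 5 genes over the 6 libraries were compared with those of genes whose values spanned at least 1 on the log2 scale. Genes with clone, Gm, LOC or Rik names, or without a symbol, were passed over. The libraries share vector groups and flow cells, so these correlations are descriptions. Of the 3 genes most like Cybb, 2 are reported here, Thbd, thrombomodulin (Pearson r = 0.994), and Ly96, the co-receptor MD-2 of Toll-like receptor signalling (0.992). They had fold changes of −2.18 and −0.83. Cyba was most like Tyrobp, a signalling adaptor of myeloid cells (r = 0.996), Arl11 (0.994) and Lst1 (0.992). For Rac2 they were Kcnip3 (0.997), Rtkn (0.995) and Cacnb3 (0.995). Ncf1 was most like Irf9 (0.974), the interferon-stimulated Oas1a (0.968) and Myo1f (0.958). Ncf4 followed Aoah (0.990), Oas1a (0.987) and Ifi204 (0.986), and its correlation with Ncf1 was 0.971. Between Cybb and Cyba r was −0.02, and between Cybb and Rac2 −0.66.

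Ncf4 and Rac2 lie on the same chromosome, with starts 315 kb apart, and share neighbours. Of 11 measured genes that start within 250 kb of either, 5 rose and 0 fell, while 9.44% of all genes rose. The 5 include the close copies Csf2rb2 and Csf2rb, whose values are uncertain. Between them lie Csf2rb2 and Csf2rb, as given above, and Tst and Mpst, sulfurtransferases that rose by 0.49 and 0.40 (limma adjusted p = 0.00754 and 0.0238). Beyond Rac2, Cyth4, a guanine nucleotide exchange factor for ARF GTPases and its nearest measured neighbour on that side, rose by 0.76 (SE 0.13, limma adjusted p = 0.0116). C1qtnf6 on its other side and Ift27 before Ncf4 did not pass (fold changes 0.33 and 0.23). Il2rb, a cytokine receptor chain added with its value known, lies between them at low values and was at −2.24, short of the threshold (limma adjusted p = 0.0518). Around Cybb, Xk and Dynlt3 were measured, 162 and 219 kb away by their starts, with fold changes of −0.19 and −0.01 that did not pass (limma adjusted p = 0.183 and 0.930).

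For the counts around Cyba and Ncf1, the share over all genes was 9.44% called higher and 8.52% called lower. Of 13 measured neighbours of Cyba, 2 rose, Zfpm1 (the GATA1 cofactor FOG1) by 1.005 and Cbfa2t3 (a corepressor) by 0.95. The nearest, Zc3h18 and Mvd, had fold changes of 0.06 and 0.04. Of 5 measured around Ncf1, 1 rose, Gatsl2 (now Castor2), by 1.46, while the nearest, Gtf2ird2 and Gtf2i, had 0.11 and 0.10 and did not pass. In the RefSeq table Cybb and Ncf1 each overlap 1 predicted transcript unit, and Cyba, Ncf4 and Rac2 overlap 0. The labels do not say whether the counting used strand, so reads of such units cannot be told apart from those of Cybb and Ncf1.

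**Figure D5:**
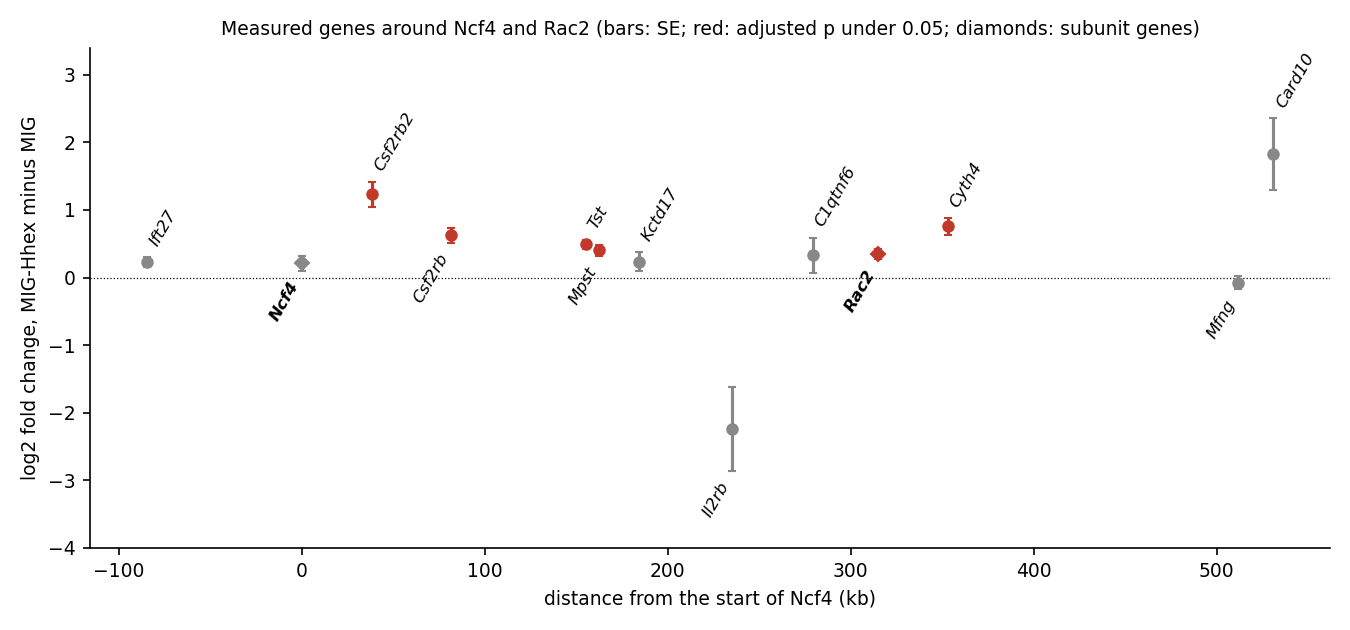
Log2 fold change with SE (vertical axis, MIG-Hhex minus MIG) of Ncf4, Rac2 and the 11 measured genes around them, by distance from the start of Ncf4 in kb (horizontal axis), with diamonds for the subunit genes and red for an adjusted p under 0.05. Csf2rb2, Csf2rb, Tst and Mpst, between the 2 subunit genes, and Cyth4 beyond Rac2 are the 5 neighbours that rose.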

How the data were processed

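Expression was read from the authors' deposited table of normalized log2 values, 1 column per library and 1 row per Entrez gene, from −7.65 to 12.98, with library medians between 3.56 and 3.60. The submitters' processing notes name build mm10 and the tools edgeR, limma, featureCounts and Subread; for versions, order and normalization: not given in the sources used here. Counts cannot be recovered, so depth is unknown and no counting interval is given. Any offset behind low log2 values is unknown.

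Groups came from the vector labels. All genes were fitted with limma 3.58.1 in R 4.3.3, with terms for flow cell and vector and eBayes with a trend, two-sided, Benjamini-Hochberg over 12161 genes, threshold 0.05. A filter (above the library minimum in at least 3 libraries) removed 0 genes. The script was checked on made-up data. Deviations from group means correlated at 0.742, 0.585 and 0.656 between same-named libraries, and at −0.588 to 0.166 between the others. The replicate names thus pair the libraries, though the value of 0.742, that of WT3, also holds the flow cell. The main model has no replicate term, so the pairing enters in full only with the replicate block. Alternatives comprised 11 settings and 9 left-out fits. GC content came from GENCODE vM21 transcripts (96.5% of genes), positions from RefSeq (12052 IDs matched). A planned comparison of protein sequences was not run. Some planned items are not reported here.

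The subunit genes, the 17 lists and the tests were chosen with earlier results of these data known. Genes named: the subunit genes; per oxidase-related list up to 4 called members with the smallest p and 2 uncalled with the highest mean; the 3 likest genes, less 1 for Cybb; nearest and called neighbours. Additions are marked.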

Additional observations from a re-analysis of the deposited data

How the results depend on the processing

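Of 20 alternatives 18 gave a fit of their own: the filter removed 0 genes, and flow cell C5LWPANXX alone is the fit without replicate WT3. Each of the 5 subunit genes kept the sign of its fold change in those 18. Cybb kept its call in 7 of 9 settings and 3 of 9 left-out fits, Rac2 in 7 and 1. The replicate block gave 3 subunit genes higher, 1506 genes higher and 1473 lower in all; the GC trend removed with the replicate block gave 2 subunit genes higher. Dropping the flow cell from the model left 119 genes higher and 98 lower, with 0 subunit genes called either way and 6 and 4 in the oxidase-related lists. On flow cell C5LWPANXX alone these numbers were 698, 519, 0, 0, 23 and 12, and without the variance trend 791, 638, 0, 0, 23 and 11. The left-out fits gave 355 to 835 genes higher and 270 to 634 lower, 0 to 1 subunit genes each way, and 19 to 37 and 9 to 13 in the lists. The subunit gene called higher was Rac2 without the MIG library of WT691, and Cyba without replicate WT691 (limma adjusted p = 0.0432).

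Of the 51 genes tracked, 7 uncalled ones changed sign, all near 0. With the GC trend removed, alone or with the block, Rap1a was at 0.12, Rap1b at 0.0928, Akt1 at −0.0969 and Gpx1 at −0.0871. Gpx1 was at −0.013 after quantile normalization and Pak2 at −0.0024 on flow cell C5LWPANXX. In the left-out fits Rap1a ran from −0.127 to 0.0241, Rap1b from −0.127 to 0.0167, Pak2 from −0.0024 to 0.107, Fcgr2b from −0.0131 to 0.177 and Pgd from −0.115 to 0.0279. The causes were not tested. The 3 libraries per group limit the precision, and the depth behind the values is unknown.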
